A study of Homo sapiens with 12 samples.

Results

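The chemokines described here are 6 genes out of the 57736 in the count tables, namely CCL20, CXCL1, CXCL2, CXCL3, CXCL5 and IL8, the last being CXCL8 under its older symbol. They were selected by name on the strength of their response to the seaweed extract in earlier work on the same libraries, so their own differences between conditions are given as a description. They were part of the fits over all genes, but their calls there are no independent test. HepG2 is a cell line of liver carcinoma origin and Ls174 one of colon carcinoma origin. Cells of both lines, wild type by their labels, were kept for 24 h either untreated or with 0.7 mg/ml of Hypnea musciformis extract (HME), a methanol extract of a red seaweed. The concentration is that of the labels, and the study's methods give a slightly higher one. Each of the 4 groups had 3 libraries, which the study describes as biological replicates. The labels call the control cells untreated and name no vehicle. Each line stands for 1 tumour and was grown without other cell types.

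Chemokines are small secreted proteins that draw white blood cells along a gradient. CXCL1, CXCL2, CXCL3, CXCL5 and IL8 act on the receptor CXCR2, and IL8 also on CXCR1, and they are best known for drawing neutrophils. CCL20 is the chemokine ligand of CCR6 and draws memory T cells, B cells and dendritic cells to epithelia. Epithelial cells are known to start transcription of all 6 genes through NF-kB, often together with AP-1 or C/EBP factors, and to clear the transcripts quickly through AU-rich stretches near their 3′ ends.

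The 5′ flanks of the genes are shown because NF-kB is the input they are known to share. The RefSeq promoter table (GRCh38.p14, 250 bases before to 50 bases after each start site) held all 6 genes, and the 110 bases just before the start site are printed 5′ to 3′ along the gene, with capitals marking an NF-kB type motif.
CXCL1: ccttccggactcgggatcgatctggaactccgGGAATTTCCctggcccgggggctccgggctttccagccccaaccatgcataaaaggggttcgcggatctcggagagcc
CXCL2: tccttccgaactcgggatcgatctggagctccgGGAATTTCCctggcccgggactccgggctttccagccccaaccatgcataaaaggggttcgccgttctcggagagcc
CXCL3: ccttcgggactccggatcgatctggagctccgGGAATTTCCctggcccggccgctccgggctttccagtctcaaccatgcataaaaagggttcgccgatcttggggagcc
CXCL5: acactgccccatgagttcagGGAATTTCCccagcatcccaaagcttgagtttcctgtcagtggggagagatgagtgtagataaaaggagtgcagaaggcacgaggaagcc
IL8: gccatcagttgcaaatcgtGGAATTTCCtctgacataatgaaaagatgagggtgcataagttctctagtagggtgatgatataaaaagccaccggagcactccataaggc
CCL20: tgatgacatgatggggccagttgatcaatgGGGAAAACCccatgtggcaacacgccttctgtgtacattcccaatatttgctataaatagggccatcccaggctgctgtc
The stretches lie at chr4:73869283-73869392 on the plus strand, chr4:74099196-74099305 on the minus strand, chr4:74038690-74038799 on the minus strand, chr4:73998678-73998787 on the minus strand, chr4:73740459-73740568 on the plus strand and chr2:227813732-227813841 on the plus strand. The motif GGAATTTCC, searched on both strands, started 78, 77, 78, 90 and 91 bases before the start sites of CXCL1, CXCL2, CXCL3, CXCL5 and IL8, and 0.461% of the 35116 promoters in the table held it. CCL20 held instead GGGAAAACC, 80 bases before its start site, a motif found in 0.439% of the promoters. An AP-1 type motif, TGANTCA, was found in the IL8 promoter alone among the 6, 137 bases before the start site and outside the printed stretch, against 7.71% of all promoters. TATAAA was found 31 bases before the start of IL8 and 29 bases before that of CCL20, and 11.5% of promoters held it somewhere. Over the 300 bases, CXCL1 and CXCL3 were 82.5% identical, CXCL1 and CXCL2 71.9% and CXCL2 and CXCL3 73.8%, whereas IL8 and CCL20 shared no more than 52.0% with any other of the 6. These matches describe letters in a window, and binding was not measured.

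In hg19, 5 of the 6 genes lie on chromosome 4 within 357 kb, from position 74607704 at the IL8 end to 74964247 at the CXCL2 end, and CCL20 lies on chromosome 2. The reads were counted in 3′ regions. For CCL20 all counts came from 228681800 to 228682469 on chromosome 2, of which 481 of 670 bases are annotated as untranslated region and 189 lie past the annotated end of the gene. The regions of CXCL1 (74736254 to 74737156), CXCL2 (74962555 to 74963472) and CXCL3 (74902109 to 74902978) on chromosome 4 likewise covered the 3′ untranslated region and 131, 202 and 197 bases beyond it, and that of IL8 (74607704 to 74609630) also took in 60 coding bases. Because CXCL1, CXCL2 and CXCL3 are close relatives, the sharing of sequence between their counted regions was measured. CXCL1 and CXCL2 were 83.1% identical there and shared a run of 77 bases, and 46 of the 854 stretches of 50 bases in CXCL1 (5.39%) were also present in CXCL2. CXCL3 shared no run longer than 21 bases with either. How the study assigned reads with several alignments is not stated, so a part of the CXCL1 and CXCL2 counts may have been exchanged between them.

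The libraries held 1790841 to 3656662 counts. Levels are given as CPM, counts scaled by library size after TMM normalization of all 12 libraries together, where 1 count is worth 0.256 to 0.623 CPM, and because reads come from transcript ends the counts do not grow with transcript length. HepG2 control 2 and Ls174 control 1 stood apart from the other replicates of their groups, with mean correlations of 0.831 and 0.832 against 0.889 to 0.967 for the rest. Ls174 control 3 held 501 counts over 9 liver marker genes, which is 0.646% of their level in HepG2 controls, and Ls174 HME 1 held 170. HNF4A, the liver marker left out of these 9, had 47 to 207 counts in the Ls174 libraries. HepG2 HME 2 held 2720 counts over 8 fibroblast markers, against 7 to 28 in the other HepG2 libraries. COL1A1 gave 1560 of them and COL1A2 1153, while DCN, LUM, PDGFRA and PDGFRB were at 0 in that library. All 10 liver markers were present in every HepG2 library. The 10 colon markers summed to 383 to 476 CPM in Ls174 and 69.8 to 209 CPM in HepG2. CDX1, CDX2, TFF3, LGALS4 and CDH17 were present in every Ls174 library. There the goblet mucin MUC2 had 0 to 7 counts, KRT20 0 to 1, SPDEF 0 to 3 and CEACAM5 0 to 17. VIL1 was at 42.3 to 79.2 CPM in Ls174 controls and 52.9 to 188 CPM in HepG2 controls. Of the leukocyte markers PTPRC, CD3E, S100A8 and FCGR3B were at 0 in all 12 libraries. LYZ, at 90.9 to 552 CPM, gave most of the leukocyte sum in every HepG2 library. ITGB2, at 6.23 to 46.7 CPM there, CD68 and CSF3R also had counts in every HepG2 library. The 12 leukocyte markers together gave 133 to 609 CPM in HepG2 controls, 462 to 608 CPM in HepG2 with HME and 1.42 to 5.38 CPM in Ls174. In RNA from whole cultures, fewer cells that transcribe a gene and less RNA of it per cell cannot be told apart.

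HME-treated cells of both lines carried more CCL20 and IL8 than untreated cells, while CXCL1, CXCL2 and CXCL3 were abundant with HME in Ls174 alone. Summed over the 6 genes, HepG2 libraries held 328, 34 and 98 counts without HME and 1157, 2492 and 2051 with it. Ls174 libraries held 25, 50 and 77 without HME and 700, 598 and 730 with it. The groups did not overlap in either line.

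Of the chemokines selected by name, CCL20 had the highest level in every HepG2 library. CX3CL1, a chemokine outside this selection, lay above CCL20 in each HepG2 control, at 77.2 to 135 CPM. With HME it lay below CCL20, at 123 to 146 CPM. The counts of CCL20 were 315, 24 and 76 in the 3 control libraries and 951, 2306 and 1905 in the 3 HME libraries. Its level was 43.5 ± 36.6 CPM (SD, n = 3) without HME and 779 ± 385 CPM with it. The lowest HME library was 4.44 times the highest control library, although the controls themselves spread from 15.0 to 84.7 CPM. The log2 fold change was 4.18 (SE 0.67). It ranged from 3.81 without HepG2 control 2 to 5.09 without HepG2 control 1, the control library with the most CCL20. Without HepG2 HME 2, the library with the COL1A1 and COL1A2 counts, the HME libraries still held 376 and 1140 CPM.

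In Ls174 cells CCL20 went from nearly absent to the most abundant of the 6. The control libraries held 0, 1 and 7 counts and the HME libraries 388, 273 and 364, or 0.701 ± 0.958 against 119 ± 22.1 CPM. Every HME library exceeded every control library by at least 54.2 times on the CPM scale, and the log2 fold change was 7.07 (SE 0.54). The 7 counts of control 3 were 4.12% of the HepG2 control mean, more than the 0.646% given by its liver markers, and the part of HepG2 RNA in them was not tested. With that library left out the remaining controls held 0 and 1 counts, which is at the floor of 3 counts per library, and CCL20 was then at least 98.9-fold higher with HME. The CCL20 level of HME-treated Ls174 cells, 97.1 to 141 CPM, lay above that of untreated HepG2 cells and below that of HME-treated HepG2 cells, 376 to 1140 CPM.

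**Figure D1:**
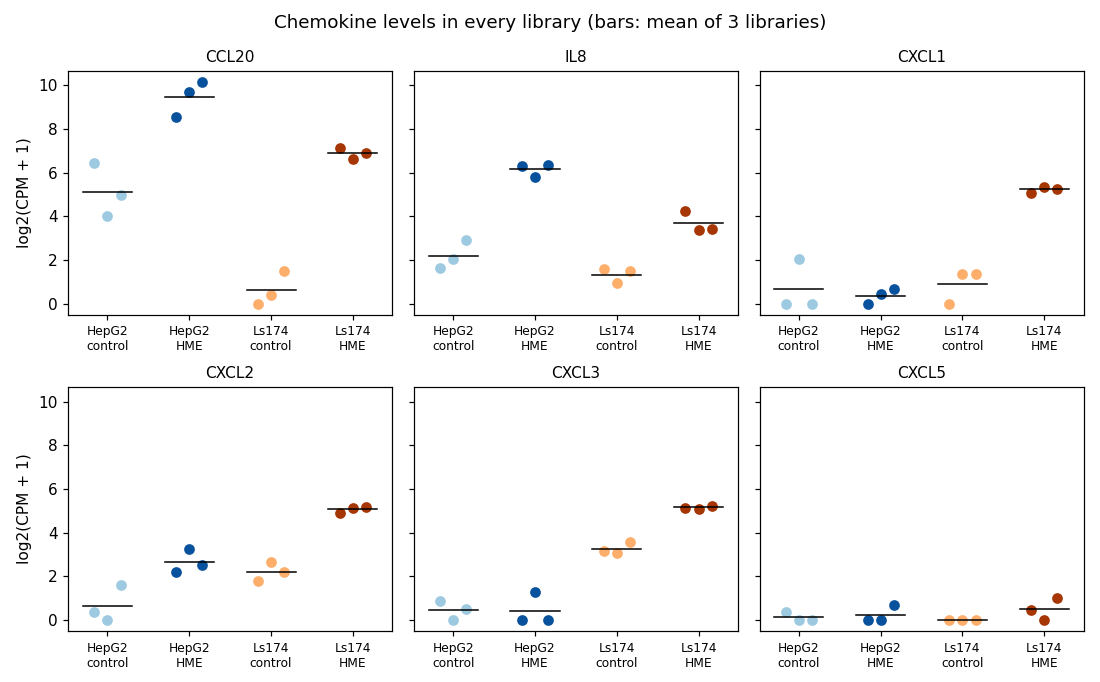
Level of each chemokine in the 12 libraries as log2(CPM + 1), with points for libraries and bars for the mean of the 3 libraries of a group. CCL20 and IL8 are higher with HME in both lines, CXCL1 and CXCL3 with HME in Ls174 only, and CXCL5 is at 0.986 CPM or less everywhere.

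IL8, the neutrophil chemokine with receptors CXCR1 and CXCR2, was low in untreated cells of both lines. HepG2 controls held 8, 5 and 16 counts and HME-treated HepG2 cells 197, 157 and 136, or 3.91 ± 2.26 against 71.7 ± 14.2 CPM, a log2 fold change of 4.22 (SE 0.46). Ls174 controls held 4, 3 and 7 counts and HME-treated Ls174 cells 50, 26 and 30, or 1.56 ± 0.554 against 12.4 ± 5.01 CPM, a log2 fold change of 2.97 (SE 0.53). The groups did not overlap in either line, and the level with HME was higher in HepG2 (55.5 to 81.7 CPM) than in Ls174 (9.25 to 18.2 CPM).

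CXCL1, a CXCR2 ligand of the GRO group, was counted above single digits in HME-treated Ls174 cells alone. Its counts were 0, 5 and 0 in HepG2 controls and 0, 1 and 1 with HME, so no fold is given for HepG2. In Ls174 they were 0, 5 and 6 in controls and 90, 112 and 114 with HME, or 1.03 ± 0.892 against 36.7 ± 3.58 CPM, a log2 fold change of 4.93 (SE 0.50). The HME libraries of Ls174 lay within 32.8 to 39.8 CPM, a narrow spread beside the distance to the highest control library, at 1.55 CPM.

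CXCL2, the second GRO gene, was higher with HME in both lines but at very different levels. HepG2 counts were 1, 0 and 5 in controls and 9, 24 and 8 with HME, or 0.763 ± 1.1 against 5.62 ± 2.56 CPM, too few to pass the filter on low counts, so the gene was not part of the HepG2 fit. These groups did not overlap, yet the highest control and lowest HME library were at 2.02 and 3.56 CPM, from only 5 and 9 counts. Ls174 counts were 5, 17 and 14 in controls and 78, 94 and 108 with HME, or 3.77 ± 1.42 against 32.4 ± 3.64 CPM, a log2 fold change of 3.05 (SE 0.33).

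CXCL3, the third GRO gene, had the highest level of the 6 in untreated Ls174 cells. Controls held 16, 24 and 43 counts and HME libraries 93, 93 and 111, or 8.78 ± 1.95 against 34.5 ± 1.78 CPM, a log2 fold change of 1.95 (SE 0.27). In HepG2 the counts were 3, 0 and 1 without and 0, 4 and 0 with HME, and no fold is given. With HME the GRO genes stood at close levels in Ls174, 36.7, 32.4 and 34.5 CPM for CXCL1, CXCL2 and CXCL3, whereas without it their means ran from 1.03 over 3.77 to 8.78 CPM. The smaller fold of CXCL3 thus went with its higher level in controls. CCL15 and CXCL16, chemokines outside this selection, lay above CXCL3 in each Ls174 control, at 30.2 to 59.0 and 28.4 to 33.9 CPM. With HME they lay below it, at 21.0 to 24.2 and 14.6 to 28.1 CPM.

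CXCL5, the epithelial CXCR2 ligand that lies between CXCL1 and CXCL3 on chromosome 4, had 6 counts in all 12 libraries together. The largest count was 3, in Ls174 HME 3, and the gene was at or under the floor in every group. CXCL5 held the motif GGAATTTCC like CXCL1, CXCL2, CXCL3 and IL8, and its level could not be measured at this depth.

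**Figure D2:**
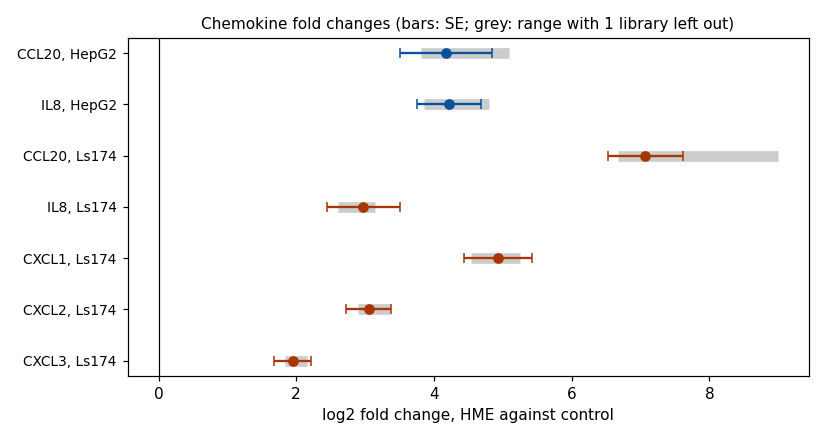
Log2 fold change of HME against control for the chemokines that passed the filter on low counts, with bars for the SE and a grey band for the range when 1 library at a time is left out. The values run from 1.95 for CXCL3 to 7.07 for CCL20, both in Ls174, and the widest band, that of CCL20 in Ls174, reaches 8.99.

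At an adjusted p under 0.05 (edgeR quasi-likelihood test, Benjamini-Hochberg over all tested genes), 2 of the 2 chemokines that passed the filter in HepG2 were higher with HME, where 2.77% of 11343 tested genes were higher and 0.538% lower. In Ls174 it was 5 of 5, where 0.318% of 11319 genes were higher and 0.866% lower. The study's own thresholds were a p under 0.05 with no adjustment and a log2 change of over 0.58 in size. Applied here to the edgeR p values, they gave the same chemokines. They took 11.3% higher and 10.9% lower of all tested genes in HepG2, and 4.11% higher and 7.85% lower in Ls174. The study itself used a binomial test over a larger set of genes and reported more raised than lowered genes in both lines. In HepG2 the call of CCL20 was lost without control 3 or HME 3. In Ls174 the 5 calls became 0 without any 1 of the HME libraries, 1 without control 2, 2 without control 3 and 0 with the replicate block. Since the genes were selected on this contrast, nothing is read from these counts.

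The make-up of the chemokine counts also differed between the lines. CCL20 took 70.6% to 96.0% of the counts of the 6 genes in the HepG2 libraries, and IL8 took 2.44% to 17.0%. The GRO genes took 81.8% to 92.0% in Ls174 controls, on sums of only 25 to 77 counts, with CXCL3 alone at 48.0% to 64.0%. With HME the GRO share in Ls174 was 37.3% to 50.0% and the CCL20 share 45.7% to 55.4%. CXCL1, CXCL2 and CXCL3 together gave at most 1.16% of the counts in HME-treated HepG2 cells.

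**Figure D3:**
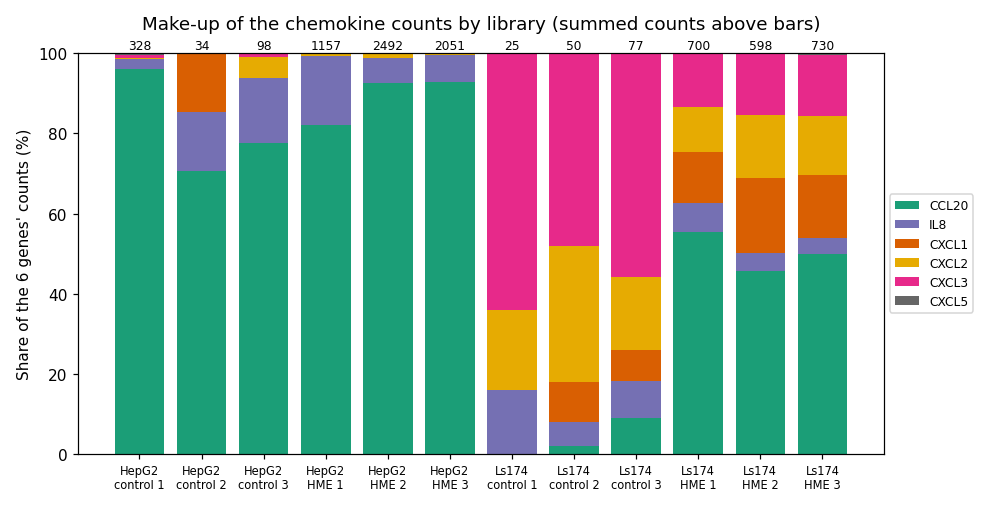
Share of each chemokine in the summed counts of the 6 genes, in percent, for each library, with the summed count above each bar. CCL20 fills most of every HepG2 bar, CXCL3 is the largest part of every untreated Ls174 bar, and CCL20 with CXCL1, CXCL2 and CXCL3 make up the HME-treated Ls174 bars.

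Without HME, the lines differed most in CCL20 and CXCL3, in opposite directions. CCL20 was at 15.0 to 84.7 CPM in HepG2 and 0 to 1.79 CPM in Ls174, a log2 difference (Ls174 minus HepG2) of -5.68 (SE 0.95). CXCL3 was at 0 to 0.807 CPM in HepG2 and 7.45 to 11.0 CPM in Ls174, a log2 difference of 4.05 (SE 0.74). Of the 2 chemokines that passed the filter here 1 was called higher and 1 lower in Ls174, where 9.33% of 11907 genes were called higher and 14.2% lower. The order of mean levels in untreated HepG2 cells was CCL20, IL8, CXCL1, CXCL2, CXCL3 and CXCL5, of which only CCL20 stood clear of the next gene in every library. In untreated Ls174 cells it was CXCL3, CXCL2, IL8, CXCL1, CCL20 and CXCL5, with CXCL3 above CXCL2 and CXCL2 above IL8 in every library. The ranges of IL8, CXCL1, CCL20 and CXCL5 touched or overlapped those of their neighbours in the order.

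The HME effect in Ls174 minus that in HepG2 was 2.94 (SE 0.99) for CCL20, 0.26 (SE 1.20) for CXCL2 and -1.22 (SE 0.70) for IL8 on the log2 scale. CXCL2 in HepG2 rests on a few counts, and its difference between lines reversed to -1.58 without HepG2 control 3. No such value is given for CXCL1 and CXCL3, since HepG2 cells had too few counts of them. None of the 5 chemokines in this fit was called, where 0.0307% of 13040 genes were called higher and 0.613% lower, and by the study's thresholds 2 were, while DESeq2 called 1, CXCL1, and the fit with no filter called 2, CCL20 and CXCL1. For CCL20 the call between lines thus depended on the filter.

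The AU-rich elements through which such transcripts are known to be cleared were counted in the same 3′ regions, read from GRCh37. The pentamer ATTTA occurred 14 times in the 1927 bases of the IL8 region, 12 times in the 918 of CXCL2, 6 times in the 903 of CXCL1, 7 times in the 870 of CXCL3 and 3 times in the 670 of CCL20. Per kb this was 7.27 for IL8, 13.1 for CXCL2, 6.64 for CXCL1, 8.05 for CXCL3 and 4.48 for CCL20, against a median of 1.49 over the regions of 12999 genes. A density at least as high was found in 1.95%, 0.292%, 2.58%, 1.55% and 11.9% of those regions. The longer form TATTTAT, present in 30.7% of regions, occurred 9 times in CXCL2, 5 times in IL8, 4 times in CXCL1, 3 times in CXCL3 and once in CCL20. The densest 30 bases of the CXCL2, CXCL1 and IL8 regions are printed 5′ to 3′ along the transcript, with ATTTA in capitals.
CXCL2: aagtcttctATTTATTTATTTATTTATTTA
CXCL1: cttaggagaagtcttctATTTATTTATTTA
IL8: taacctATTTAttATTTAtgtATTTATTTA
They lie in GRCh37 at chr4:74963307-74963336 on the minus strand, chr4:74736382-74736411 on the plus strand and chr4:74608825-74608854 on the plus strand. CXCL5, at or under the floor in every group, had 12 ATTTA in 2192 bases, or 5.47 per kb.

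Of the receptors, CXCR1 and CXCR2 had no library above 1 count in either line. CCR6, the receptor of CCL20, had 34, 58 and 22 counts in HepG2 controls and 23, 52 and 23 with HME, and 0 to 2 counts in Ls174. In HepG2 its HME effect was -0.36 (SE 0.60, adjusted p = 0.752) on the log2 scale. Its level without HME differed between the lines (adjusted p = 0.00354), with 8.89 to 36.1 CPM in HepG2 and 0 counts in all 3 Ls174 controls. Of the other listed CXCR2 ligands, CXCL6 and PPBP, which lie in the same stretch of chromosome 4, were at 0 in all 12 libraries, as were the platelet chemokines PF4 and PF4V1. MIF, a cytokine that also binds CXCR2 and was named after its values were seen, was at -1.14 (SE 0.53, adjusted p = 0.241) in HepG2 and -0.13 (SE 0.31, adjusted p = 0.876) in Ls174. Of the 11 other genes annotated in that stretch 10 were at 0, and the remaining one, the pseudogene HNRNPA1P55, had at most 2 counts.

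The wider chemokine and NF-kB network was followed in 190 genes on 9 lists, covering other CXCR2 ligands, other chemokines, receptors, inducing cytokines and pattern receptors, signalling to NF-kB, NF-kB subunits and inhibitors, AP-1, C/EBP and EGR factors, mRNA stability factors and other inflammatory NF-kB targets. The lists were chosen with earlier results of these data known, so their counts of calls are no independent test. In HepG2, 94 of the 190 genes passed the filter on low counts. Of these, 18 rose and 1 fell at an adjusted p under 0.05, beside 2.77% and 0.538% of all tested genes. Their median log2 fold change was 0.42 against -0.04 for all genes. In Ls174, 75 passed the filter, 1 rose and 0 fell, beside 0.318% and 0.866% of all tested genes, with a median of -0.01 against -0.00. By the study's thresholds on the edgeR p values 36 were higher and 2 lower in HepG2, beside 11.3% and 10.9% of all tested genes. In Ls174 9 were higher and 4 lower, beside 4.11% and 7.85%. The 40 genes at 0 in all libraries included the inducers TNF and IL1A and the inflammatory products IL6 and CCL2.

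In HepG2, of the AP-1, C/EBP and EGR factors, 8 of 13 rose and 1 fell, with a list median of 2.62. EGR1, an immediate early zinc finger factor, went from 20, 7 and 3 counts to 424, 536 and 303 (log2 fold change 5.60, SE 0.51, adjusted p = 0.00101), and the stress-induced factor ATF3 from 22, 3 and 13 to 654, 481 and 359 (5.57, SE 0.45, adjusted p = 0.00062). JUN, which joins FOS proteins in AP-1, rose by 4.07 (SE 0.52, adjusted p = 0.00332) on the log2 scale. FOS had 0 counts in all 3 controls and 55, 49 and 28 with HME (adjusted p = 0.00249). Against the floor of 3 counts per library it was at least 14.4-fold higher. FOSB, FOSL1, FOSL2 and JUNB rose by 2.49 to 3.70. CEBPA, a liver factor of the C/EBP family, fell by 2.33 (SE 0.51, adjusted p = 0.04), and CEBPB, which acts with NF-kB on the IL8 promoter, was at 1.69 (SE 0.41, adjusted p = 0.0588).

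Among the NF-kB subunits and inhibitors 1 of 16 rose in HepG2. NFKBIA, the inhibitor that NF-kB itself induces, had 912, 109 and 536 counts without and 2658, 2812 and 1741 with HME (log2 fold change 2.58, SE 0.45, adjusted p = 0.0165). The induced inhibitor TNFAIP3 was at 1.17 (SE 0.29, adjusted p = 0.0634), and the subunits NFKB1, RELA, RELB, REL and NFKB2 were at 0.42, 0.80, 0.57, 0.97 and 0.32, with adjusted p values of 0.149 to 0.804. NFKBIE and NFKBIZ were at 0.70 and 0.08. The study names NFKBIA as a p53 target raised in HME-treated HepG2 cells, and which input raised it was not tested here. Of the 19 tested signalling genes 2 rose, the kinase-like adaptor IRAK2 by 2.32 (SE 0.34, adjusted p = 0.00736) and IKBKG, the regulatory subunit of the IkB kinase, by 1.69 (SE 0.32, adjusted p = 0.0213). IKBKG has a near-identical pseudogene, so its counts are uncertain.

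Of 17 mRNA stability factors 2 rose in HepG2. ZFP36, which binds AU-rich elements and speeds the decay of such transcripts, had 1, 1 and 3 counts without and 49, 37 and 23 with HME (adjusted p = 0.004), and was at least 11.9-fold higher. DUSP1, a phosphatase that switches off the kinases acting on ZFP36, rose by 3.68 (SE 0.35, adjusted p = 0.00128). The endonuclease ZC3H12A was at 1.97 (SE 0.62, adjusted p = 0.112). Of 13 other inflammatory targets 5 rose, with IER3 at 5.60 (SE 0.38, adjusted p = 0.00062), the cytokine IL11 at 4.96 (SE 0.40), the protease PLAU at 4.14 (SE 0.42) and GADD45B at 3.01 (SE 0.37). The cytokine LIF, at 3, 1 and 3 counts without HME and 21, 31 and 30 with it, was at least 9.57-fold higher. ICAM1, SOD2 and CSF1, which NF-kB is also known to induce, were at 0.21, 0.24 and 0.51 with adjusted p values of 0.616 to 0.809, and LCN2 and BIRC3 were too low to be tested. The chemokine CXCL16, at 0.49 (SE 0.49, adjusted p = 0.589), stood for the 4 other chemokines tested, none of which was called or had an unadjusted p under 0.05. CXCL12 had 410 counts in HepG2 HME 2 and at most 1 in any other library.

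Of the 19 calls in HepG2, 11 held whichever library was left out, and leaving out HepG2 control 1, control 3, HME 1, HME 2 or HME 3 ended 3, 5, 5, 6 and 8 of them. NFKBIA was among those lost, with an adjusted p of 0.0758 without HepG2 HME 3, as were IKBKG (0.123), JUNB (0.155) and CEBPA (0.155 without HepG2 HME 1).

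**Figure D4:**
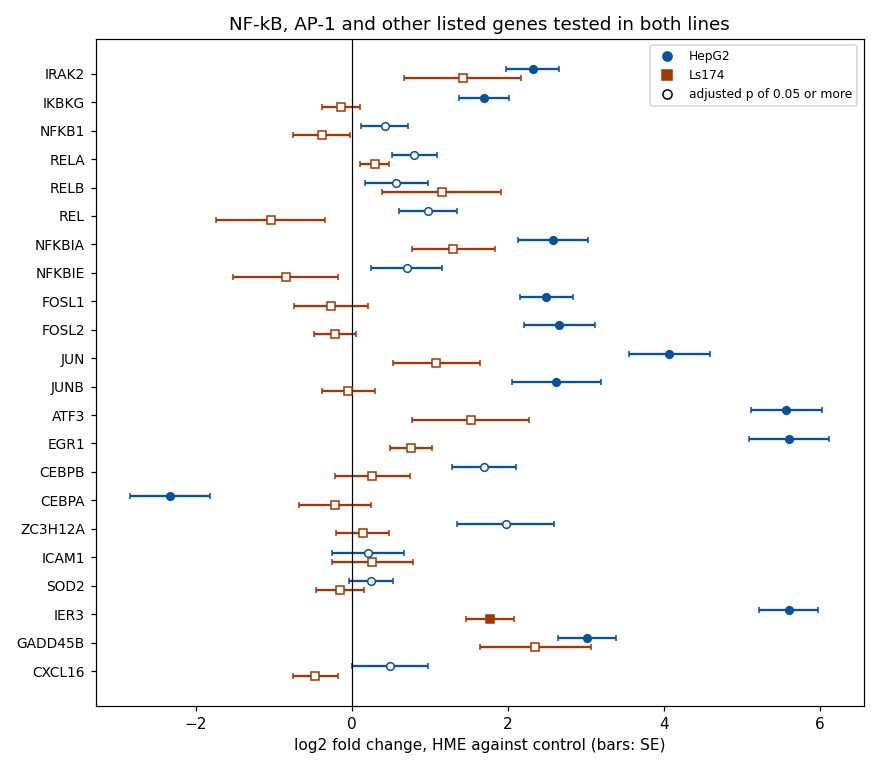
Log2 fold change of HME against control in HepG2 (circles) and Ls174 (squares) for named genes of the NF-kB and AP-1 network that were tested in both lines and were not at the floor in a group, with bars for the SE and filled symbols for an adjusted p under 0.05. IER3 alone is filled in both lines, while ATF3 and EGR1 lie beyond 5 in HepG2 and at 1.52 and 0.76 in Ls174.

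In Ls174 1 of the 75 listed genes tested was called, against 6 with DESeq2, 9 with no filter and 11 without Ls174 control 1. IER3 rose, from 300, 1065 and 1275 counts to 2875, 2418 and 2587 (log2 fold change 1.77, SE 0.31, adjusted p = 0.0392), and that call held only without Ls174 control 1. It was lost without any other library, with an adjusted p of up to 0.274. NFKBIA was at 1.30 (SE 0.53, adjusted p = 0.342), with 21, 215 and 276 counts in controls and 362, 321 and 372 with HME. Control 1 was the lowest library here, and RELB, IRAK2, ATF3 and GADD45B were at 0 counts in it. RELA and NFKB1 were at 0.29 and -0.39, REL at -1.04, JUN at 1.08, ZFP36 at 0.17, ICAM1 at 0.26, SOD2 at -0.15 and CXCL16 at -0.47, with adjusted p values of 0.44 to 0.894. REL was highest in control 1, at 34.9 CPM against 4.66 to 9.98 CPM in the other Ls174 libraries. Without control 1 the log2 fold changes of CXCL1 and CXCL2 were 4.54 and 2.89.

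Chosen after their values were seen, 3 other listed genes with higher values in HME-treated Ls174 cells are given. LTB, a membrane-bound TNF family ligand, had 1, 0 and 3 counts without and 12, 14 and 19 with HME (adjusted p = 0.0895), and was at least 4.91-fold higher. TNFAIP2, a TNF-induced gene, was at 3.22 (SE 0.75, adjusted p = 0.101), and PTGES, which makes prostaglandin E, at 1.90 (SE 0.39, adjusted p = 0.0715). None passed the threshold.

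The difference of the HME effect between the lines was itself called for 10 of 100 listed genes, all with the larger value in HepG2. Of all 13040 tested genes, 0.613% were called with the larger value in HepG2 and 0.0307% with the larger value in Ls174. That direction was thus also the common one over all genes. Between lines, EGR1 differed by -4.82 (SE 0.52, adjusted p = 0.00061) and IER3 by -3.80 (SE 0.48, adjusted p = 0.00143) on the log2 scale. NFKBIA differed by -1.24 (SE 0.76, adjusted p = 0.523), and no subunit or inhibitor of NF-kB was called in this comparison. REL, at -1.97 (SE 0.80, adjusted p = 0.302), was the 1 of 17 past the study's thresholds. Its level in Ls174 was high in control 1 alone, as given above. The interaction calls of EGR1 and IER3 held without any of the 12 libraries in turn. The other 8 did not, since leaving out any library but HepG2 control 2 ended 1 to 8 of the 10 calls, the most for Ls174 HME 2 and Ls174 HME 3.

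The profiles nearest to that of the chemokines were found by the Pearson correlation of log2 CPM with the mean standardized level of the chemokines in the fit. Over all 12 libraries and 13040 genes these were S100P (r = 0.940), TALDO1 (0.905), AREGB (0.893), DDIT4 (0.891) and SEC23B (0.890). S100P, a calcium-binding protein of epithelia, had 266 to 659 counts in HepG2 controls, 1003 to 2060 with HME, 616 to 1362 in Ls174 controls and 3089 to 3439 with HME. AREGB is a near-identical copy of AREG in hg19, so its counts are uncertain. In the 6 HepG2 libraries the nearest included YRDC, RASD1, PLAU and AQP3 (0.997 to 0.999), and in the 6 Ls174 libraries TSC22D3, PLIN2, PEX11G, SNORD3B-2 and NOS3 (0.994 to 0.999), of which SNORD3B-2 belongs to a family of like copies. With 2 levels of treatment and 3 libraries each, such values are shared by any gene with a steady difference between the groups, and they rest on the same libraries and depths.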

How the data were processed

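RNA from HepG2 and Ls174 cells, untreated or treated with HME, was sequenced in 12 libraries. The authors made 3′ libraries (QuantSeq, Ion Proton), aligned reads to hg19 (GRCh37) with Hisat2 and used metaseqR2, and the submitters' processing notes also name Bowtie2 and Trimmomatic. The deposited values are counts of reads per 3′ region, whole numbers without normalization. Versions and the treatment of strand and of reads with several alignments are not given in the sources used here.

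Counts were summed per gene and fitted over the whole table with the quasi-likelihood test of edgeR 4.0.16 in R 4.3.3 (TMM scaling, low counts removed by filterByExpr), per line on 6 libraries, for the controls on 6, and for the interaction on 12. The SE was derived from the F statistic. DESeq2 1.42.0, other scaling, no filter, 1 fit of all 12 libraries, the largest region alone, the replicate block and leaving out each library were the alternatives. The procedure was run on simulated counts with the same spread for every gene and no deviating library, unlike the data here. Tests are two-sided and measure the spread among these libraries.

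The chemokines and the gene lists were chosen with earlier results of these data known. The rule for named genes took all 6 chemokines, set receptors, NF-kB genes and targets, any other listed gene with an adjusted p under 0.05 in either line, the 5 nearest profiles, and the genes of the chromosome 4 stretch. Counts at or below 3 in every library of a group were taken as the floor, which covers counting error only. A fold given as at least sets the mean CPM with HME over the mean CPM of that floor. Single libraries can give less. Python 3.11.15 with pandas 2.3.3 and numpy 2.4.6 was used for tables. Proteins and the study's other assays were not analysed here, and 1 of the nearest profiles is not reported here.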

Additional observations from a re-analysis of the deposited data

Results flagged for a closer look

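The HME effect differed between the lines for 10 genes of the listed network, and in each the value in Ls174 was the smaller one. The test was of the difference itself (edgeR quasi-likelihood interaction term, Benjamini-Hochberg over 13040 genes, 12 libraries). Over all tested genes, 80 were called with the smaller value in Ls174 and 4 with the larger. On the log2 scale the effect in Ls174 minus that in HepG2 was -4.82 for EGR1, -4.28 for ZFP36, -4.03 for ATF3, -2.85 for FOSL2 and -2.75 for FOSL1. It was -4.01 for DUSP1, -3.80 for IER3, -1.81 for IKBKG, -4.31 for LIF and -6.92 for IL11. Those of ZFP36, LIF and IL11 rest on a group at or under 3 counts per library and depend on the prior count, so their size is no bound. With the replicate block 3 of the listed genes were called in this comparison, and none of the 6 chemokines was called with or without it.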

How the results depend on the processing

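Of 205 values of chemokine differences under an alternative, 196 kept their direction and moved by less than the SE of the main fit. A further 8 moved by more and 1 reversed. The reversed one was the difference between lines for CXCL2. It went from 0.26 to -1.58 without HepG2 control 3 and reached 0.87 without HepG2 control 1. The 205 include the differences between lines for CXCL1 and CXCL3, where the SE was wide, at 1.79 and 1.23. Leaving out 1 library left 1 to 2 chemokines called in HepG2 and 0 to 5 in Ls174, where the directions stayed and the calls were 0 without any one HME library. CXCL2 in HepG2, not in the main fit, was called in 1 fit of all 12 libraries and with no filter. It was fitted but not called without HepG2 HME 1 or without any 1 HepG2 control. CXCL3 in Ls174 lost its call in 1 fit of all 12 libraries. The replicate block (adjusted p) left 2 chemokines called in HepG2 and 0 in Ls174. The cause was not tested.

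The counts of calls moved more. In HepG2, where 375 genes were called, DESeq2 called 1033, no filter 1407 and 1 fit of all libraries 807, and with 1 library left out 95 to 921 were called, where 11 to 28 were listed genes against 19. In Ls174, where 134 genes were called, DESeq2 called 434, no filter 604 and the replicate block 0, and 0 to 979 were called with 1 library left out. The 1 listed gene called in Ls174 became 6 with DESeq2, 0 by library size only, 9 with no filter, 0 with the replicate block, and 0 to 11 with 1 library left out. By the study's thresholds the 13 listed genes there became 21 with no filter and 8 to 20 with 1 library left out. Between control groups the 18 listed genes became 32 with no filter. For the interaction, 84 genes became 380 with DESeq2, 49 by library size only, 367 with no filter, 16 with the replicate block and 17 to 143 with 1 library left out. Its 10 listed genes became 6 by library size only, 3 with the replicate block and 2 to 12 with 1 library left out.

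The deviations of same-numbered libraries had correlations of -0.17, 0.09 and -0.12 in HepG2 and -0.03, -0.01 and -0.05 in Ls174. With 3 libraries per group these values cannot show whether the numbers pair the samples. The labels and the study's methods state no pairing, so the block is given as an alternative. No chemokine had counts in a region listed under several genes. Depth limits CXCL5 in every group and CXCL1 and CXCL3 in HepG2, where a difference was not detectable.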
